A study of Arabidopsis thaliana with 12 samples.

Results

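AT4G38020 and AGL26 (locus AT5G26880) are 2 of the 691 Arabidopsis genes that have an array row annotated with 1 gene only. They were taken by name from the platform annotation, and each had exactly 1 such row. Both were chosen by their lower intensity in the mutant in earlier results of these same arrays, so their difference between the groups is given as a description and carries no test here. In the annotation of the Arabidopsis genome, as generally known, both encode proteins of the SpoU family of RNA methyltransferases. The tables used here do not state protein families. For AGL26 they give the full name AGAMOUS-like 26, which points to the MADS box transcription factors, so the family label could not be checked and the genes are called by their names.

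The study measured total RNA on 12 expression arrays of Arabidopsis thaliana, 6 titled WT and 6 titled stn7stn8. WT is ecotype Columbia 0, grown without any treatment that the labels name. The mutant lacks both STN7 and STN8, a pair of kinases in the thylakoid membrane that act on antenna and core proteins of photosystem II. The source field calls every sample WT, so the groups rest on the titles, and the sources used here give no organ, age, light or alleles. Mutant replicates 4 and 5 differed by at most 4.0e-10 and were counted once as replicate 4, which leaves 6 arrays against 5. Neither kinase gene had a row annotated with it alone, so the titled genotype was not checked. Nothing says that the replicates came from separate plants, so every p-value measures the spread between these arrays only, which may be technical.

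SpoU-type enzymes transfer a methyl group from S-adenosylmethionine to the ribose of tRNA or ribosomal RNA, and are known best from bacteria. Plants carry several nuclear genes for such enzymes, and those of bacterial type can act on the RNA of plastids or mitochondria. Methylation of ribosomal and transfer RNA supports ribosome assembly and accurate decoding. The substrates of AT4G38020 and AGL26 are not addressed by an expression array.

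The arrays of both groups differed in the distribution of their intensities, and this bears on every value below. Summed intensities lay between 3586 and 3682 in all 11 arrays, but the median log2 intensity was -1.65 to -1.36 in wild type and -1.003 to -0.94 in the mutant. Quantile normalization, which gives every array the same distribution, was therefore the main scaling. After it, 766 of 3229 tested rows were called higher in the mutant by limma and 632 lower (adjusted p under 0.05), against 1814 and 281 on the deposited values and 631 and 860 with arrays centred on their medians. The median difference of all rows was 0.058 (log2) after quantile normalization and 0.50 as deposited. Of 8 genes chosen as marks of green tissue, 5 had a row of their own, of which PSAN and PRK were lower and 3 did not pass. The call of PSAN was lost without single arrays of either group (adjusted p up to 0.0617, limma) and that of PRK on the deposited values (adjusted p = 0.0607, limma). PSBW, at -0.33 without a call, was called lower under the other 3 scalings (-0.897, -1.44 and -0.42). SBPASE passed in some alternatives, only as higher, such as at 0.50 on the deposited values. LHB1B2 was called higher after cyclic loess (0.36) and lower with arrays centred on their medians (-0.47). None of 4 root genes had a row of its own, and tissue makeup was therefore not analysed here.

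The signal of AT4G38020 was at 0.443 of the wild-type level in the mutant. Its normalized log2 intensity in wild type ran from -1.89 over a median of -1.80 to -1.58. In mutant replicates 1, 2, 3, 4 and 6 it was -2.24, -3.04, -2.51, -3.36 and -3.49. Every mutant array thus lay below every wild-type array, with replicates 1 and 3 nearest to wild type and replicates 4 and 6 farthest from it. The group means were -1.75 ± 0.12 (SD, n = 6) and -2.93 ± 0.54 (n = 5), a log2 difference of -1.17 ± 0.21 (SE of the fit). Of all tested rows, 2.57% had a lower difference. In these bulk samples, fewer cells of a type and less RNA per cell cannot be told apart.

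AGL26 was at 0.603 of the wild-type level. Its normalized log2 intensity ran from -1.52 over a median of -1.34 to -1.06 in wild type. In mutant replicates 1, 2, 3, 4 and 6 it was -2.23, -1.70, -2.62, -2.07 and -1.55. The groups did not overlap, but mutant replicate 6 came close to wild-type replicate 4, and mutant replicate 3 was farthest away. Wild-type replicates 5 and 6 were the highest arrays, and without them the log2 difference was -0.61. The group means were -1.30 ± 0.19 (n = 6) and -2.03 ± 0.43 (n = 5), a log2 difference of -0.73 ± 0.18 (SE), and 9.41% of tested rows had a lower one. Both genes were among the rows called lower, which were 19.6% of all rows tested, and among the rows whose mutant values all lay below wild type, 13.2%. Since this contrast chose them, nothing is read from these counts.

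**Figure D1:**
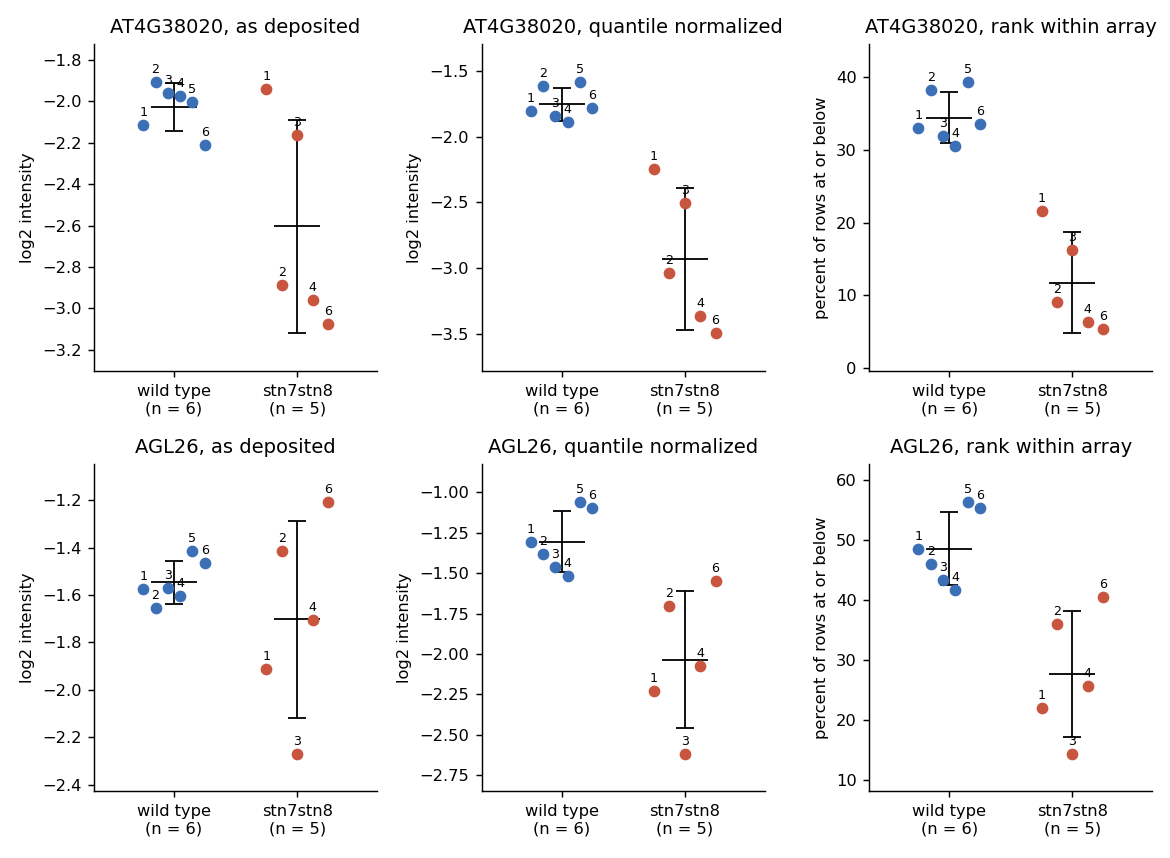
AT4G38020 (top) and AGL26 (bottom) in each array, as deposited log2 intensity, as normalized log2 intensity and as the percent of rows at or below the gene in its own array. Numbers are replicates, and lines and bars are the mean and SD of 6 wild-type and 5 mutant arrays. As deposited, mutant replicates 1 and 3 of AT4G38020 sit within the wild-type range and those of AGL26 spread to both sides of it, while the other panels show no overlap.

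The deposited intensities looked different for both genes. AT4G38020 had 0.216 to 0.267 in wild type, with a median of 0.252, and 0.261, 0.135, 0.224, 0.129 and 0.119 in mutant replicates 1, 2, 3, 4 and 6. Replicates 1 and 3 were thus inside the wild-type range and the other 3 mutant arrays below it. The log2 difference was -0.58 ± 0.20 (SE). On this scale 8.7% of all rows were called lower, AT4G38020 among them, from which nothing is read either.

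For AGL26 the deposited intensity was 0.318 to 0.375 in wild type, with a median of 0.336. The mutant arrays had 0.266, 0.375, 0.207, 0.306 and 0.433 in the same order. Replicates 1, 3 and 4 lay below the wild-type range and replicate 6 above it. Replicate 2 exceeded its upper end only slightly (0.3752 against 0.3750). The log2 difference was -0.16 ± 0.16 (SE), smaller than the spread between the mutant arrays, and the row was not called.

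A rank within the array does not depend on scale. AT4G38020 exceeded or equalled 30.6% to 39.4% of the measured rows in wild-type arrays, with a median of 33.3%. It did so for 21.6%, 9.04%, 16.3%, 6.32% and 5.45% in mutant replicates 1, 2, 3, 4 and 6, where it ranked among the dimmer rows in each array. For AGL26 the rank went from between 41.6% and 56.3% in wild type to between 14.3% and 40.4% in the mutant. Neither gene overlapped between the groups by this measure. Quantile normalization keeps the order of rows within an array, so this restates the result on normalized values and adds no support.

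The mutant arrays disagreed more among themselves than the wild-type arrays did, for both genes. The SD of AT4G38020 was 4.35 times as large in the mutant, a ratio above that of 97.6% of tested rows, whose median ratio was 1.04. For AGL26 the ratio was 2.25, above that of 87.5% of rows. Among the 7 other RNA modification genes described below it ran from 0.25 (AT2G19870) to 3.73 (AT2G39670), with AT3G13180 at 2.39. A larger spread in the mutant was thus not particular to AT4G38020 and AGL26. AT4G38020 was also a dim row, at the 19.5 percentile of mean brightness, and AGL26 was at the 37.4 percentile. The part of brightness in this spread was not tested.

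The arrays that were high for one gene were low for the other within the mutant. Replicates 1 and 3 had the highest values of AT4G38020 and the lowest of AGL26, and replicate 6 had the lowest of AT4G38020 and the highest of AGL26. The deviations of both genes from their group means correlated with r = -0.57 over the 11 arrays, with -0.73 among the 5 mutant arrays and 0.58 among the 6 wild-type arrays. These r are a description over few arrays that share their scaling, and 8.12% of all pairs among 627 named genes measured in every array had a lower r. The log2 ratio of AT4G38020 to AGL26 within an array ran from -0.75 to -0.25 in wild type. It was -0.024 and 0.11 in mutant replicates 1 and 3, and -1.48, -1.25 and -1.87 in replicates 2, 4 and 6. The ratio therefore left the wild-type range upward in 2 mutant arrays and downward in 3.

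**Figure D2:**
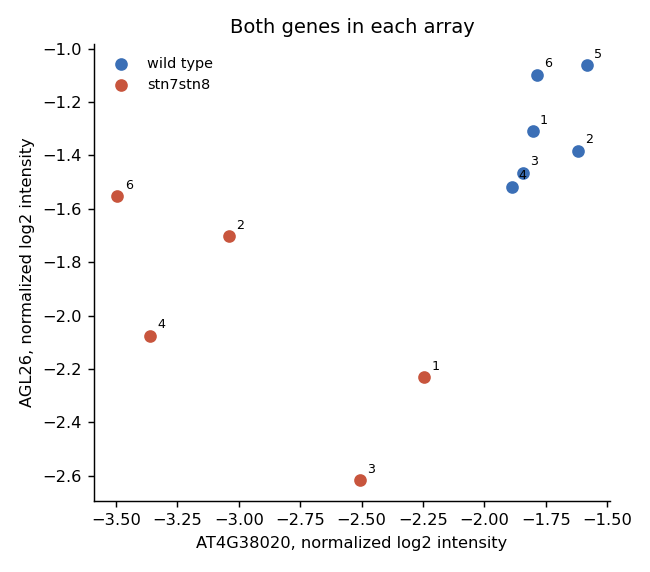
Normalized log2 intensity of AT4G38020 (horizontal axis) and AGL26 (vertical axis) in each of 6 wild-type and 5 mutant arrays, numbered by replicate. Wild-type arrays lie together at the upper right, and the mutant arrays spread from replicate 6, lowest for AT4G38020 at -3.49, to replicate 3, lowest for AGL26 at -2.62.

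The rows that varied most like each gene inside the groups were found from deviations from the group means, so the difference between genotypes was not used. For AT4G38020 these were AT1G09200 (r = 0.85 over 11 arrays), THIC, an enzyme of thiamine synthesis (r = 0.83), and AT1G68660 (r = 0.80), while the median r over all genes compared was -0.062. In wild type alone r was -0.11 for AT1G09200, against 0.97 in the mutant, so that likeness rests on the mutant arrays. For THIC these r were 0.44 and 0.91, and for AT1G68660 0.56 and 0.85. Over all arrays r for THIC was 0.69 as deposited, 0.69 with centred arrays and 0.67 without mutant replicate 1. The rows most like AGL26 were AT2G21960 (r = 0.93), AT3G02030 (r = 0.92) and AT4G34310 (r = 0.88), and here r was at least 0.70 within each group. Among these 6 genes, AT1G68660 was called lower, by -0.46 ± 0.11 (SE, adjusted p = 0.00691, limma), and the other 5 did not pass. All points of a correlation share their arrays, so none of these r is a test.

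Other RNA methyltransferases and modification enzymes gave no common direction. A list of 31 further genes was written from general knowledge of the Arabidopsis annotation, not by how they moved, and 7 of them had a row of their own. Of these 7, 2 rose (23.7% of all rows did), 0 fell and 5 did not pass, with a median log2 difference of 0.076, against 0.058 for all tested rows. Those that rose were AT5G15390, a further SpoU family gene, and AT3G13180, of the NOP2/Sun family of RNA cytosine methyltransferases.

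The signal of AT5G15390 was 1.599-fold higher in the mutant. Its normalized log2 intensity ran from -1.34 over a median of -1.18 to -0.95 in wild type, and was -0.41, -0.0080, -0.65, -0.70 and -0.60 in mutant replicates 1, 2, 3, 4 and 6. All mutant arrays lay above wild type, as in 15.7% of all rows, and replicate 2 was the highest. The log2 difference was 0.68 ± 0.13 (SE, adjusted p = 0.00159, limma), 1.12 as deposited, and the call held in all 23 alternatives.

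AT3G13180 was 1.49-fold higher, from between -2.68 and -2.38 with a median of -2.51 in wild type to -2.01, -2.13, -1.66, -1.70 and -2.22 in the same mutant arrays. The groups did not overlap. The log2 difference was 0.57 ± 0.12 (SE, adjusted p = 0.00207, limma), 1.18 as deposited and 0.20 where the median intensity, 0.401, was added before taking log2. Like AT4G38020 it was a dim row, at the 20.4 percentile.

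AT2G19870, the other SpoU family gene on the list with its own row, was at 0.42 ± 0.23 in wild type and 0.50 ± 0.059 in the mutant, with overlapping values. Its log2 difference of 0.076 ± 0.11 (SE) did not pass (adjusted p = 0.615, limma), but with arrays centred on their medians it was called lower at -0.30 (limma, adjusted p = 0.0258, and 0.0258 to 0.941 over the alternatives). Wild-type replicates 5 and 6 were the lowest arrays, at 0.19 and 0.091. This was a bright row, at the 88.4 percentile.

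The remaining 4 genes did not pass after quantile normalization, and 3 of them passed under another scaling. AT5G10910, the counterpart of the bacterial MraW ribosomal RNA methylase, had a log2 difference of 0.21 ± 0.098 (SE, adjusted p = 0.104, limma). It passed as higher in deposited units at 0.54 and without mutant replicate 1 at 0.28 (adjusted p = 0.000707 and 0.0274, limma). AT3G28460, a methyltransferase of the RsmD type, had -0.022, but 0.58 as deposited (adjusted p = 0.903 and 0.00994, limma). AT3G56330, a tRNA dimethylguanosine methyltransferase, had 0.030, but was called lower at -0.26 with arrays centred on their medians (adjusted p = 0.846 and 0.0494, limma). AT2G39670, a radical SAM protein related to bacterial RlmN, had -0.33 ± 0.45 (SE, adjusted p = 0.583, limma), and its sign rested on mutant replicate 2, without which the difference was 0.20.

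**Figure D3:**
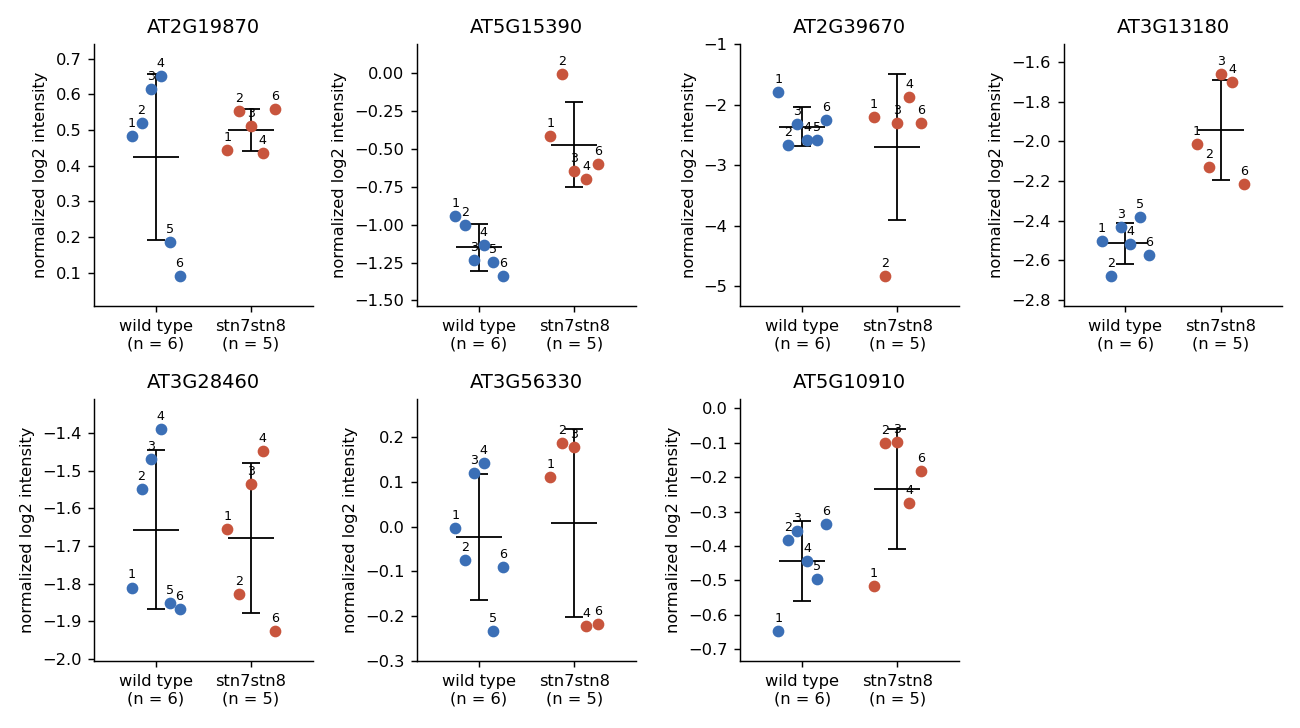
Normalized log2 intensity of the 7 other RNA modification genes in each array, with the mean and SD of 6 wild-type and 5 mutant arrays and replicate numbers at the points. AT5G15390 and AT3G13180 show all mutant arrays above wild type, AT2G39670 shows mutant replicate 2 at -4.83, and the other 4 overlap.

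The differences of the genes assigned to the SpoU family by general knowledge were unequal. Since AT4G38020 and AGL26 were chosen as lower, nothing about the family is read from this. The log2 ratio of AT4G38020 to AT5G15390 was taken within an array, so that a factor common to the whole array cancels. A different shape of the distribution does not cancel between rows of unlike brightness, and AT5G15390 was at the 63.4 percentile. The ratio went from -0.64 ± 0.21 (SD, n = 6) in wild type to -2.33 ± 0.59 (n = 5) in the mutant. The wild-type ratios lay between -0.95 and -0.37 and the mutant ratios between -3.00 and -1.69, without overlap. For AGL26 against AT5G15390 the ratio went from between -0.41 and 0.26 to between -1.84 and -0.86, also without overlap. These ratios contain the contrast that chose AT4G38020 and AGL26, and AT5G15390 had itself been called higher. Their separation was thus largely set beforehand, and they are given without a test.

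Against AT2G19870 the separation was less complete. The log2 ratio of AT4G38020 to AT2G19870 was -2.36 ± 0.23 in wild type and -3.17 ± 0.55 in the mutant, and that of AGL26 was -1.88 ± 0.37 and -2.27 ± 0.38. The ranges of the groups overlapped for both ratios.

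**Figure D4:**
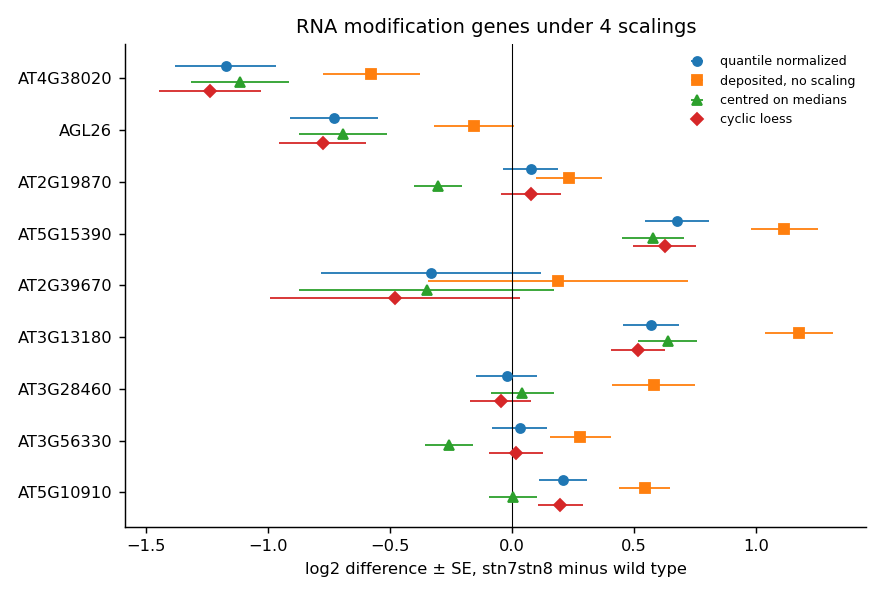
Log2 difference between mutant and wild type (horizontal axis, with SE) for AT4G38020, AGL26 and the 7 other RNA modification genes under quantile normalization, no scaling, centring on array medians and cyclic loess. AT4G38020 and AGL26 lie below 0 under all 4 scalings and AT5G15390 and AT3G13180 above 0, while AT2G19870, AT2G39670, AT3G28460 and AT3G56330 change sign.

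With arrays centred on their medians the difference was -1.12 for AT4G38020 and -0.69 for AGL26, and after cyclic loess it was -1.24 and -0.78. Both rows were among those called lower there, 26.6% and 20.2% of all rows, and among those with all mutant values below wild type, 19.2% and 13.9%. This is the contrast that chose both genes, and it adds no support. Of the 7 other genes, 2 were called higher and 2 lower with centred arrays, where 19.5% of all rows were called higher, and 4 higher and 0 lower on the deposited values, where 56.2% of all rows were called higher.

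The symbol AGL26 places the gene beside the MADS box genes by name. Of 2 further genes with such symbols and a row of their own, AGL103 was lower by -0.57 ± 0.12 (SE, adjusted p = 0.00304, limma), but -0.096 and not called on the deposited values (limma, adjusted p = 0.468, and 0.00156 to 0.468 over the alternatives). AGL54 gave 0.046 (adjusted p = 0.807, limma). Of 5 plastid ribosomal protein genes, whose products work together with methylated ribosomal RNA, 2 rose, 0 fell and 3 did not pass after quantile normalization. Of all rows, 23.7% rose and 19.6% fell under this scaling. CHLM, a methyltransferase of chlorophyll synthesis and not of RNA, was higher by 0.51 ± 0.093 (SE, adjusted p = 0.00104, limma). The ribosomal genes that rose were AT1G29070, by 1.91, and AT3G13120, by 0.37 (adjusted p = 0.0222 and 0.0492, limma). Without mutant replicate 3 the difference of AT1G29070 was 1.24. Its call was lost with the median intensity added before taking log2, at 0.68, and with consecutive wild-type arrays averaged (adjusted p = 0.141 and 0.0765, limma), and AT3G13120 lost its call in 12 of 23 alternatives. AT3G54210 was next by p at 0.29 (adjusted p = 0.0581, limma). It passed as higher in 6 of 23 alternatives, such as at 0.63 on the deposited values (adjusted p = 0.00169, limma). AT1G64510 had 0.24, but was called higher at 0.83 as deposited (adjusted p = 0.464 and 0.00555, limma). AT4G01310 had -0.19, but was called lower at -0.37 with arrays centred on their medians (adjusted p = 0.195 and 0.0119, limma).

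**Figure D5:**
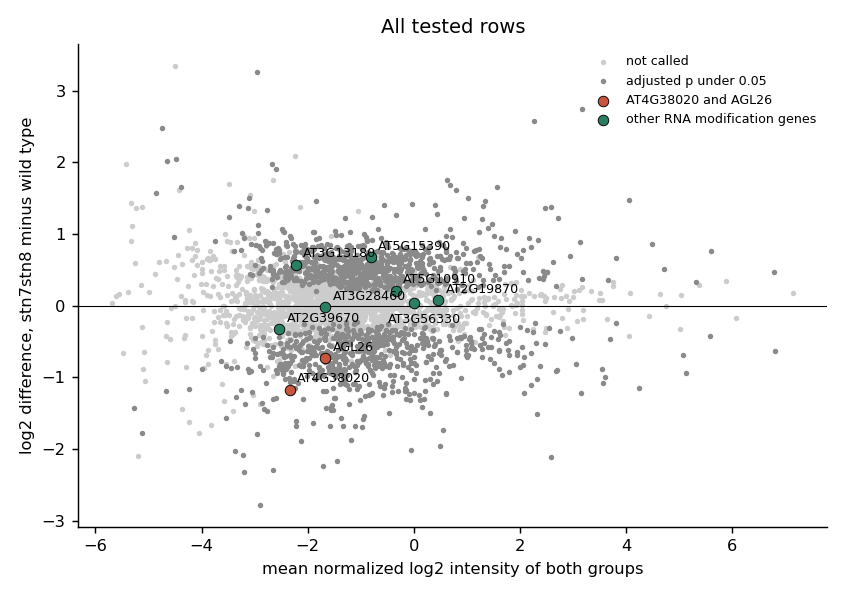
Log2 difference between mutant and wild type (vertical axis) against mean normalized log2 intensity (horizontal axis) for 3229 tested rows, with rows at an adjusted p under 0.05 in dark grey. AT4G38020 at -1.17 and AGL26 at -0.73 lie among the called rows in the dimmer part of the range, and the other RNA modification genes spread from -0.33 to 0.68.

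In the gene table of assembly TAIR10.1, AT4G38020 overlaps its neighbour AT4G38030 and AGL26 overlaps AT5G26865. Neither neighbour had a row of its own, and the sources used here give neither position nor strand of the array probes, so signal from these genes cannot be told apart from that of AT4G38020 and AGL26.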

How the data were processed

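The values are the deposited intensities of the series table, on a linear scale and never below 0. The sources used here do not say what scaling or background step the authors applied or which genome build they used, so no coordinates are given. Zeros were set to missing, the intensities transformed to log2 and quantile normalized, and limma 3.58.1 under R 4.3.3 (functions lmFit and eBayes, two-sided tests) was applied to rows with 4 values in each group, with Benjamini-Hochberg adjustment over 3229 rows and a threshold of 0.05. Genes were named where the platform annotation gave 1 gene (692 of 3439 rows, 690 matched to the TAIR10.1 table). The number of arrays limits the precision.

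The members and lists were chosen with earlier results of these data known. Named are both members, the tested genes of every list, and the 3 genes most like each member. The lists were RNA modification, ribosomal proteins, other methyltransferases, MADS box names, tRNA charging (0 rows), green tissue and root. Alternatives changed the scaling, low values, the filter, the variance model, the identical and the consecutive arrays, added a replicate block and left out arrays. The fit was tested on simulated data.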

Additional observations from a re-analysis of the deposited data

Results flagged for a closer look

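Groups of values were screened for an array far from the others. The rule has a nominal chance rate of about 1 in 20 groups, not measured here. In 34 groups, of both genes and the listed genes, a single array stood far apart in 2. For AT2G39670, this was mutant replicate 2 at -4.83 (normalized log2), while the remaining 4 ran from -2.30 to -1.87. For AT1G29070, it was mutant replicate 3 at 1.02, while the remaining 4 ran from -2.46 to -2.18. No array of AT4G38020 or AGL26 stood apart in this way.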

How the results depend on the processing

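The contrast below chose AT4G38020 and AGL26, so their values under other settings show how far the sizes depend on processing and add no support. AT4G38020 was left out when the dimmest 25% of rows were dropped. Their log2 differences moved to -0.58 and -0.16 on the deposited values, where AGL26 lost its call, and to -0.39 and -0.31 with the median intensity added before taking log2. The number of other RNA modification genes called was 4 on the deposited values and 4 with arrays centred on their medians, and 1 without the dimmest 25% of rows, where fewer were tested. AT2G19870 turned to -0.30, AT3G56330 to -0.26 and LHB1B2 to -0.47 with centred arrays, and AT3G28460 to 0.58 on the deposited values. Leaving out single arrays gave -1.34 to -1.04 for AT4G38020, -0.86 to -0.59 for AGL26 and 2 to 3 RNA modification genes. The labels do not say that replicate numbers pair the arrays, and 4 of 5 same-numbered pairs deviated together with r over 0.1 (0.0067 to 0.203), 4 of 5 mutant arrays being most like their own number. With a replicate block, 796 rows were higher and 629 lower, AT4G38020 was at -1.14 and AGL26 at -0.68, and 2 RNA modification genes were called. Consecutive wild-type arrays had similar median log2 intensities (-1.510 and -1.507, -1.363 and -1.357, -1.648 and -1.633). Averaging these pairs, with only rows measured in every array tested, left 545 rows higher and 469 lower. The adjusted p was then 0.0172 for AT5G15390 and 0.0211 for AT3G13180 (limma). Without wild-type replicates 5 and 6, or mutant replicates 1 and 2, settings chosen after seeing the data, 2 RNA modification genes were called each time.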

Other observations

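A further row lists AGL26 together with 3 other genes and is therefore not named for any of them. Its normalized log2 intensity ran from -2.15 to -1.53 in wild type and from -4.10 to -0.71 in the mutant, a difference of -0.33 ± 0.45 (SE) that did not pass (adjusted p = 0.587, limma). Its deviations from the group means correlated with those of the AGL26 row at r = 0.32 over 11 arrays, given as a description. Within wild type r was -0.84 and within the mutant 0.46, so both rows varied in opposite directions among wild-type arrays.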
